A study of Mus musculus with 42 samples.

Results

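The genes described here are 10 genes that astrocytes are known to express: *Aqp4*, *Fabp7*, *Gfap*, *Slc1a2*, *Slc1a3*, *Gja1*, *Aldh1l1*, *Aldoc*, *S100b* and *Sox9*. They are 10 of the 37907 Ensembl gene IDs in the expression table, and each symbol matched a single ID. *Aqp4* and *Fabp7* were chosen because their levels were lower in fasted than in fed mice in the ventromedial hypothalamus (VMH), and the other members were added as astrocyte genes by name. The fasted and fed values of the VMH are therefore given as a description, with no test.

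Gene expression was measured by RNA-seq in 42 libraries from 4 hypothalamic nuclei of wild-type male C57/BL6 mice aged 17 to 19 weeks, that had food at all times or had gone without it for 24 hours. The arcuate nucleus (ARC) had 5 fed and 5 fasted libraries, the VMH 6 and 6, the dorsomedial hypothalamus (DMH) 5 and 4, and the paraventricular nucleus (PVN) 6 and 5. Nuclei were cut by laser from cresyl violet-stained sections, 2 ng of RNA was amplified per nucleus, and the single-end reads carried no strand. Each library is bulk tissue, so fewer astrocytes and less RNA of a gene per astrocyte cannot be told apart.

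Levels are given as RPKM (reads per kilobase of exon, scaled to the depth of the library), a unit that puts levels of different genes on a per-length scale. Fasting differences are fitted differences of log2(RPKM + 1), fasted minus fed, with their standard error (SE). Adjusted p-values are from limma with the Benjamini-Hochberg method over the 33579 genes tested, and the threshold for a call was an adjusted p of 0.1. The nuclei of a brain share a mouse and the labels do not pair the libraries, so each library counted as an independent sample, and p-values measure the spread between libraries.

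The estimated depth was 1.33 to 13.2 M reads per library. In the DMH it was higher in fasted than in fed mice, with a mean of 7.38 M against 3.91 M. The 9 genes listed as markers of single nuclei or of the neighbouring lateral hypothalamus all differed between nuclei. *Pomc*, the precursor of the satiety peptide alpha-MSH, averaged 441 RPKM in the ARC and between 7.80 and 18.8 RPKM in the other nuclei. *Agrp*, a hunger peptide gene, was higher in the fasted ARC (log2 difference 1.61, adjusted p = 0.0613 from limma). Genes of the other cell types listed were also present in each dissected nucleus. The summed level of 11 neuron genes was 855 to 1879 RPKM over all libraries, and that of the 10 astrocyte genes was 411 to 833 RPKM.

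Astrocytes take up the glutamate that neurons release, buffer potassium and water around synapses and vessels, supply neurons with fuel, and are joined to each other by gap junctions. In the hypothalamus they sit beside neurons that sense fuels and hormones, and they border blood vessels with endfeet. AQP4 is the water channel of those endfeet. FABP7 is a brain fatty acid-binding protein of radial glia and astrocytes, and GFAP is an intermediate filament protein. SLC1A2 and SLC1A3 (GLT-1 and GLAST) are the astrocyte glutamate transporters, and GJA1 (connexin 43) forms their gap junctions. ALDH1L1 is an enzyme of folate metabolism, ALDOC a glycolytic aldolase, S100B a calcium-binding protein, and SOX9 a transcription factor of glial fate.

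The 250 bases before the RefSeq transcription start (GRCm38.p6) are shown for *Fabp7*, the member with the largest fitted fasting difference in each nucleus, and for *Slc1a3*, the member that varied most closely with it between libraries but gave no call on fasting. The *Fabp7* window is chr10:57784673-57784922 on the plus strand, and the *Slc1a3* window is chr15:8710808-8711057 on the minus strand. Capitals mark matches, on either strand, to 3 short motifs of factors known to act in astrocytes: the SOX core ACAAT, the NFI element TTGGC and the RBPJ core TGGGAA.
Fabp7: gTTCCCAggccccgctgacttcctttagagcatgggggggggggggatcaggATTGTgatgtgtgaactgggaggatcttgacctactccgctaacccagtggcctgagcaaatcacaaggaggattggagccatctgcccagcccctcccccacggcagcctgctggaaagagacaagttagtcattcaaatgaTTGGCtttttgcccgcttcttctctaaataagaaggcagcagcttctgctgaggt
Slc1a3: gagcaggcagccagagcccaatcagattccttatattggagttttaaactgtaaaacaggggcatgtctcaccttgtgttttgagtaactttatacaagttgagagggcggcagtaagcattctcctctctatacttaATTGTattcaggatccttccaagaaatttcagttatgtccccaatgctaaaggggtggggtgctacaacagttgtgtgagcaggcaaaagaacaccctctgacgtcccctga
In the *Fabp7* window the SOX core began 198 bases, the NFI element 55 bases and the RBPJ core 249 bases before the start. The *Slc1a3* window held the SOX core 112 bases before the start and neither of the other motifs. Windows were given for 8 of the 10 members (not *Aqp4* or *Sox9*). A member counted if any of its windows matched (*Aldoc* had more than 1), whereas the percentages are of single windows. The SOX core was in 3 of these 8 and in 27.7% of all 32851 windows of the same length, the NFI element in 4 (41.5%) and the RBPJ core in 5 (21.6%). The nuclear receptor element AGGTCA was in 3 (14% of all windows), *Fabp7* among them, and the glucocorticoid receptor element AGAACA in 1 (16.1%), *Slc1a3*. The octamer ATGCAAAT (1.6% of all windows), the E-box CACGTG (6.02%) and the full palindromic glucocorticoid response element (0.00913%) were in 0 of the 8. A match is not a measured site.

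Gene positions are on GRCm38 from GENCODE M21. *Aqp4* lies on chromosome 18 (15389496 to 15410982, minus strand) and *Fabp7* on chromosome 10 (57784881 to 57788450, plus strand). Chromosome 10 also holds *Gja1* (56377330 to 56402513) and *S100b* (76253853 to 76261159), both on the plus strand. On chromosome 11 are *Gfap* (102887336 to 102900912, minus strand), *Aldoc* (78322968 to 78327781, plus strand) and *Sox9* (112782224 to 112787760, plus strand). *Slc1a2* lies on chromosome 2 (102658659 to 102790784, plus strand), *Slc1a3* on chromosome 15 (8634124 to 8710764, minus strand) and *Aldh1l1* on chromosome 6 (90486427 to 90600203, plus strand). The values are sums over the exons of each gene. Exons of *Gm15756* and *Gm45901* cover 13.4% of the exon length of *Aldh1l1*, so its reads cannot be assigned with certainty. For *Slc1a2* the overlap was 1.44%, and for the other 8 genes it was 0.

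All 10 genes had reads in every library and passed the filter on low values. On the per-length scale *Aldoc* was highest, with a mean of 208 RPKM over the 42 libraries, followed by *Slc1a2* at 132 RPKM. *Slc1a3* (46.9 RPKM), *S100b* (42.9 RPKM) and *Fabp7* (42.3 RPKM) lay close together, and their ranges over libraries overlapped. *Gja1* averaged 28.5 RPKM and *Aqp4* 17.1 RPKM. *Sox9* (8.35 RPKM), *Gfap* (5.76 RPKM) and *Aldh1l1* (3.55 RPKM) were low. The lowest estimated number of reads behind a value was 7.87 for *Gfap*, 17.1 for *Aldh1l1* and 38.9 for *Fabp7*, so single values of *Gfap* and *Aldh1l1* were the least precise.

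The genes differed in how much they varied. The highest library of *Slc1a2* was 1.93 times its lowest, and that of *Slc1a3* 2.10 times, whereas the ratio was 7.39 for *Fabp7*, 7.17 for *Aldh1l1* and 17.4 for *Gfap*. The glutamate transporters were thus the steadiest of the set, and *Gfap* the most variable.

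**Figure D1:**
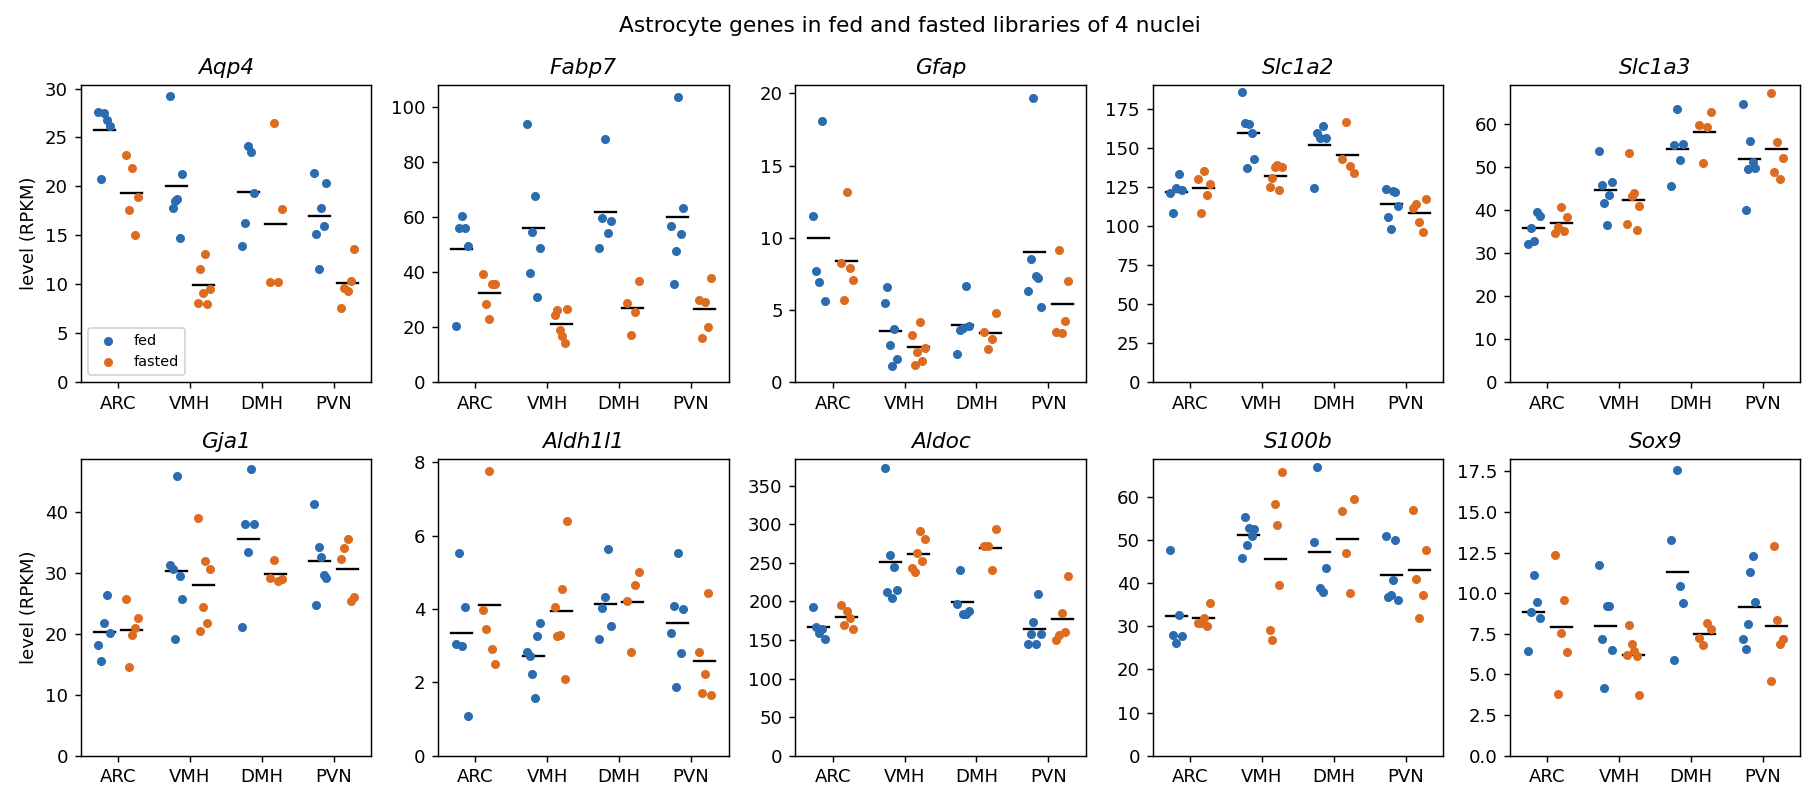
Level in RPKM (linear axis from 0) of each of the 10 genes in the 42 libraries, by nucleus, with fed libraries in blue and fasted libraries in orange; the black bar is the group mean. Fasted *Fabp7* libraries lie at or below 39.1 RPKM in every nucleus, whereas all but 3 fed libraries lie above 39.1 RPKM.

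The first question was whether the genes differ in level between nuclei, tested on the mean of fed and fasted groups, which does not use the fasted against fed contrast of the VMH. Of the 10 genes, 7 differed, against 18.7% of all genes tested, by limma's moderated F test over the 4 nuclei. These were *Slc1a2*, *Slc1a3*, *Aldoc*, *Gfap*, *Aqp4*, *Gja1* and *S100b*. Of the 33579 genes tested, 8836 had reads in all libraries and a mean of at least 5 RPKM. The table carries a count added to the reads, described with the processing, which alone can lift a short gene past the filter on low values. Genes without reads in some or in all libraries can thus count in the share of all genes, here and below. The share called among the 8836 genes was not computed and may be higher. *Fabp7* (adjusted p = 0.821), *Aldh1l1* (0.573) and *Sox9* (0.591) did not pass the threshold. The genes did not share an order of nuclei.

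*Aqp4* and *Gfap* were highest in the ARC. Mean *Aqp4* was 22.6 ± 4.49 RPKM in the ARC (SD, n = 10), 18 ± 5.96 in the DMH (n = 9), 15.0 ± 6.43 in the VMH (n = 12) and 13.9 ± 4.65 in the PVN (n = 11). The ARC exceeded the PVN by 0.74 on the log2 scale (SE 0.14, adjusted p = 0.000368) and the VMH by 0.64 (SE 0.14, adjusted p = 0.000928), while neighbours in the order (ARC and DMH, DMH and VMH, VMH and PVN) did not pass the threshold. Mean *Gfap* was 9.19 ± 3.94 RPKM in the ARC, 7.39 ± 4.51 in the PVN, 3.69 ± 1.39 in the DMH and 2.96 ± 1.74 in the VMH. ARC and PVN libraries overlapped widely (adjusted p = 0.574), the PVN exceeded the DMH (log2 difference 0.73, SE 0.25, adjusted p = 0.0866), and the ARC exceeded the VMH by 1.40 (SE 0.23, adjusted p = 2.35e-05). One library stood out, a fed PVN library with 19.7 RPKM of *Gfap*, the highest of all 42.

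The gap junction gene *Gja1*, the glutamate transporter gene *Slc1a3* and *S100b* were lowest in the ARC. Mean *Slc1a3* was 56.0 ± 5.92 RPKM in the DMH, 52.9 ± 7.76 in the PVN, 43.4 ± 5.88 in the VMH and 36.3 ± 2.84 in the ARC. Its ARC libraries lay between 32.1 and 40.5 RPKM and its DMH libraries between 45.6 and 63.3 RPKM (log2 difference DMH minus ARC 0.61, SE 0.08, adjusted p = 1.55e-06). *Gja1* averaged 20.5 ± 3.86 RPKM in the ARC and 29.2 to 33.0 RPKM in the other nuclei, which did not differ from each other past the threshold. *S100b* averaged 32.1 ± 6.03 RPKM in the ARC and 42.4 to 48.5 RPKM elsewhere. The ARC was below each other nucleus for both genes, with the smallest of these differences for *S100b* against the PVN (0.39, SE 0.13, adjusted p = 0.0925).

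The pair *Aldoc* and *Slc1a2* had a different order, with the VMH and DMH above the ARC and PVN. Mean *Aldoc* was 257 ± 45.4 RPKM in the VMH and 230 ± 43.1 in the DMH, against 173 ± 14.9 in the ARC and 170 ± 28.3 in the PVN. The VMH exceeded the PVN by 0.58 (SE 0.08, adjusted p = 1.10e-06), while the VMH and DMH (adjusted p = 0.510) and the ARC and PVN (adjusted p = 1) could not be separated. *Slc1a2* averaged 149 ± 14.7 RPKM in the DMH, 146 ± 19.1 in the VMH, 123 ± 9.24 in the ARC and 111 ± 9.69 in the PVN. The DMH exceeded the PVN by 0.42 (SE 0.06, adjusted p = 3.60e-06).

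By pairs of nuclei, 7 genes differed between the VMH and ARC (13.4% of all genes tested) and 6 between the DMH and ARC (5.75%). There were 4 between the PVN and ARC (7.4%) and 4 between the VMH and PVN (14.9%). The PVN and DMH were separated by 3 (6.45%) and the VMH and DMH by 1 (7.77%), *Slc1a3*.

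**Figure D2:**
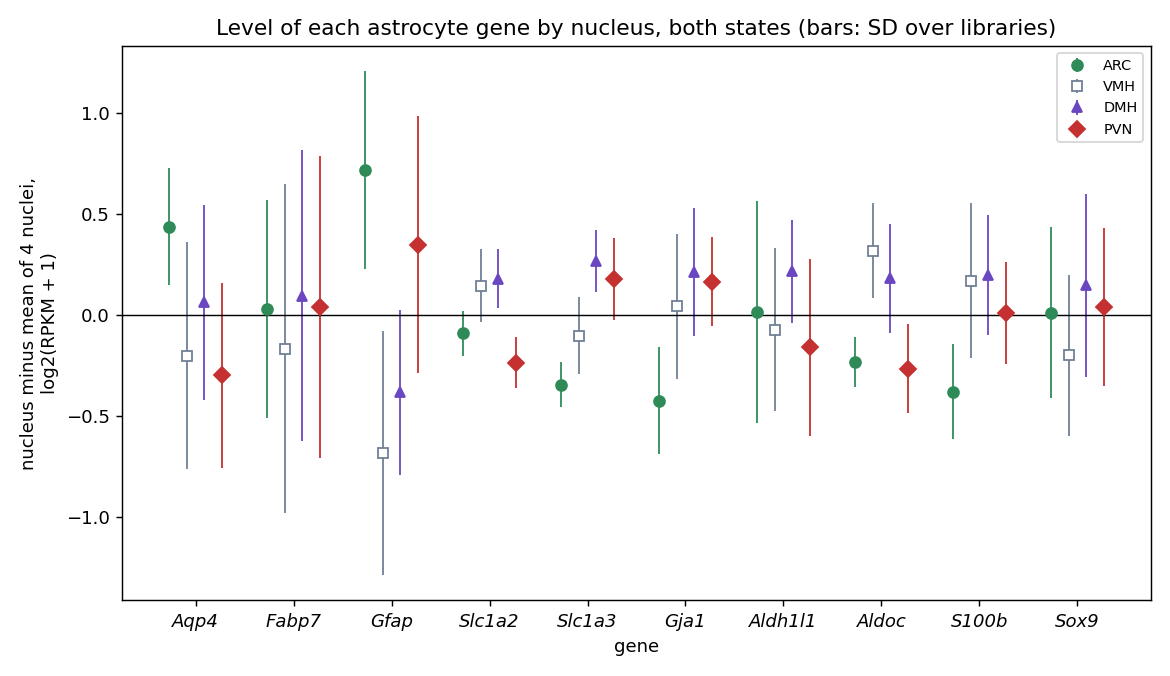
Level of each gene in each nucleus on the log2(RPKM + 1) scale, less the mean of the 4 nuclei; points are means over fed and fasted libraries and bars are the SD over libraries. *Gfap* and *Aqp4* stand highest in the ARC, whereas *Slc1a3*, *Gja1* and *S100b* stand lowest there.

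In the VMH, whose contrast was used for the choice, *Fabp7* ranged from 30.9 to 93.9 RPKM in the 6 fed libraries (median 51.7) and from 14 to 26.7 RPKM in the 6 fasted libraries (median 21.7). *Aqp4* ranged from 14.7 to 29.3 RPKM in fed (median 18.6) and from 8.01 to 13.1 RPKM in fasted libraries (median 9.26). For both genes every fasted library was below every fed library, an arrangement with fasted lower that 0.146% of all genes tested had. Genes without reads cannot have this arrangement, so the share among genes with reads may be higher. The fitted log2 difference was -1.31 (SE 0.27) for *Fabp7* and -0.94 (SE 0.19) for *Aqp4*. Both genes were chosen by this difference, so that they are among the 0.131% of all genes past the threshold in the VMH follows from the choice and is no result. Of the other members, *Slc1a2* (-0.26, SE 0.07) was the next by the ratio of its difference to its error, and the rest lay between -0.32 (SE 0.31) for *Gfap* and 0.39 (SE 0.24) for *Aldh1l1*. The median over the 10 genes was -0.25, and the median over the 8836 genes with reads in all libraries and a mean of at least 5 RPKM was -0.03. The median of the 10 genes includes *Fabp7* and *Aqp4*, chosen for being lower here, so this comparison is no result either.

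The question for the ARC, DMH and PVN, which the rule of choice did not use, was whether the genes changed with fasting there too. The members and tests were chosen with earlier results of these data known, so the answer is no independent check. These nuclei were cut from the same brains as the VMH, so they are other libraries but not other mice, and p-values that count each library as independent may be too small. The difference of *Fabp7* was below 0 in all 3 nuclei. In the DMH, its 5 fed libraries had 48.7, 54.4, 58.5, 59.9 and 88.4 RPKM and its 4 fasted libraries 17, 25.6, 28.6 and 36.6 RPKM. The groups did not overlap, an arrangement with fasted lower that 0.468% of all genes tested had in the DMH. Genes without reads cannot have it, so the share among genes with reads may be higher and was not computed. The fed mean of 62.0 ± 15.4 RPKM was 2.30 times the fasted mean of 26.9 ± 8.10 RPKM.

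In the PVN, *Fabp7* ranged from 35.6 to 104 RPKM in the 6 fed libraries (median 55.2) and was 16.2, 20.1, 29.2, 29.9 and 38 RPKM in the 5 fasted libraries. Of the fasted libraries, 4 lay below the lowest fed library and all 5 below the fed mean, and the fed mean was 2.25 times the fasted mean. In the ARC, the 5 fed libraries had 20.3, 49.6, 56.0, 56.1 and 60.5 RPKM and the 5 fasted libraries 22.8, 28.5, 35.7, 35.7 and 39.1 RPKM. All 5 fasted libraries were below 4 of the fed libraries, and the remaining fed library, with 20.3 RPKM, was below all of them.

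Within single nuclei, the difference of *Fabp7* did not pass the threshold. The log2 difference was -1.19 in the DMH (SE 0.31, adjusted p = 0.230), -1.13 in the PVN (SE 0.28, adjusted p = 0.180) and -0.50 in the ARC (SE 0.29, adjusted p = 0.773). Averaged over the ARC, DMH and PVN it was -0.94 (SE 0.17, adjusted p = 0.00455), which passed the threshold. It was lower than the fed mean in 5 of 5 fasted ARC, 4 of 4 DMH and 5 of 5 PVN libraries. *Fabp7* was the only one of the 10 genes past the threshold in this averaged contrast, against 0.214% of all genes tested and 0.0893% called lower.

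The averaged fall of *Fabp7* passed the threshold in all 42 fits that left out a library, between -1.03 and -0.87. Such a fit drops a library and not a mouse, whose other nuclei may remain. With depth as a covariate, it was -0.97 (SE 0.18, adjusted p = 0.00752), and the DMH difference was -1.26 (SE 0.33). The lowest values of the table put the libraries into 3 sets that were adjusted together, called batches here. Within batches 2 and 3 the difference was -1.68 and -0.86 in the DMH, where batch 1 held 0 fasted libraries. The batches gave -0.57, -1.65 and -1.05 in the PVN, and -1.16 and -0.55 in batches 2 and 3 of the ARC. In batch 1 of the ARC, which held 1 fed and 1 fasted library, the difference was 0.91, since that fed library was the one with 20.3 RPKM. Without that library the ARC difference was -0.78 (adjusted p = 0.694).

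*Aqp4* also averaged lower in fasted libraries of each nucleus. In the PVN it ranged from 11.6 to 21.4 RPKM in the 6 fed libraries (median 16.8) and was 7.59, 9.29, 9.56, 10.3 and 13.6 RPKM in the 5 fasted libraries. In the ARC the fed libraries had 20.8, 26.2, 26.8, 27.5 and 27.6 RPKM and the fasted libraries 15.1, 17.5, 18.9, 21.9 and 23.2 RPKM. In both nuclei every fasted library was below the fed mean. In the DMH the fed libraries had 13.9, 16.2, 19.3, 23.5 and 24.1 RPKM and the fasted libraries 10.2, 10.2, 17.6 and 26.5 RPKM, so the highest fasted library was above all fed libraries.

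The log2 difference of *Aqp4* was -0.70 in the PVN (SE 0.19, adjusted p = 0.353), -0.41 in the ARC (SE 0.20, adjusted p = 0.675) and -0.33 in the DMH (SE 0.22, adjusted p = 0.997). Their mean was -0.48 (SE 0.12, adjusted p = 0.116), which did not pass the threshold. It passed in 5 of the 42 fits that left out a library, and without the fasted DMH library of 26.5 RPKM it was -0.57 (adjusted p = 0.0104). The difference of *Aqp4* was below 0 in each batch of each of these nuclei that held both states, from -0.24 in the ARC to -1.15 in the PVN.

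Among the other 8 genes, *Aldoc* averaged higher in the fasted DMH, where fed libraries ranged from 184 to 241 RPKM and fasted libraries from 241 to 293 RPKM. Of the 4 fasted DMH libraries 3 were above the highest fed library, and the log2 difference was 0.44 (SE 0.13, adjusted p = 0.388). *Sox9* averaged 11.3 ± 4.38 RPKM in fed and 7.51 ± 0.611 RPKM in fasted DMH libraries (log2 difference -0.46, SE 0.27, adjusted p = 0.927). *Gfap* averaged 9.03 ± 5.33 RPKM in fed and 5.42 ± 2.54 RPKM in fasted PVN libraries, and without the fed library of 19.7 RPKM the log2 difference went from -0.60 to -0.37. The glutamate transporters had the narrowest errors: averaged over the ARC, DMH and PVN, *Slc1a2* was -0.04 (SE 0.05) and *Slc1a3* 0.07 (SE 0.06). *S100b* (0.04, SE 0.11), *Aldh1l1* (-0.04, SE 0.15) and *Gja1* (-0.08, SE 0.11) were near 0 with wider errors.

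By limma, 0 of the 10 genes passed the threshold in the ARC alone (0.0566% of all genes tested), 0 in the DMH (0.0238%) and 0 in the PVN (0.0715%). At an unadjusted p under 0.05 the counts were 0, 2 (*Fabp7* and *Aldoc*) and 2 (*Fabp7* and *Aqp4*). Of the 33579 genes tested, 2517 in the ARC, 2175 in the DMH and 1857 in the PVN were under that cut. The median difference of the 10 genes was 0.01 in the ARC, -0.11 in the DMH and -0.14 in the PVN, beside -0.01, 0.01 and -0.02 over the 8836 genes with reads in all libraries. Whether the response differed among the ARC, DMH and PVN was tested with an interaction term, and 0 of the 10 genes passed. Of all genes tested 4, or 0.0119%, passed. At an unadjusted p under 0.05 there were 0 of the 10 genes and 1393 of all genes tested. A difference between the VMH and the other nuclei was not tested.

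**Figure D3:**
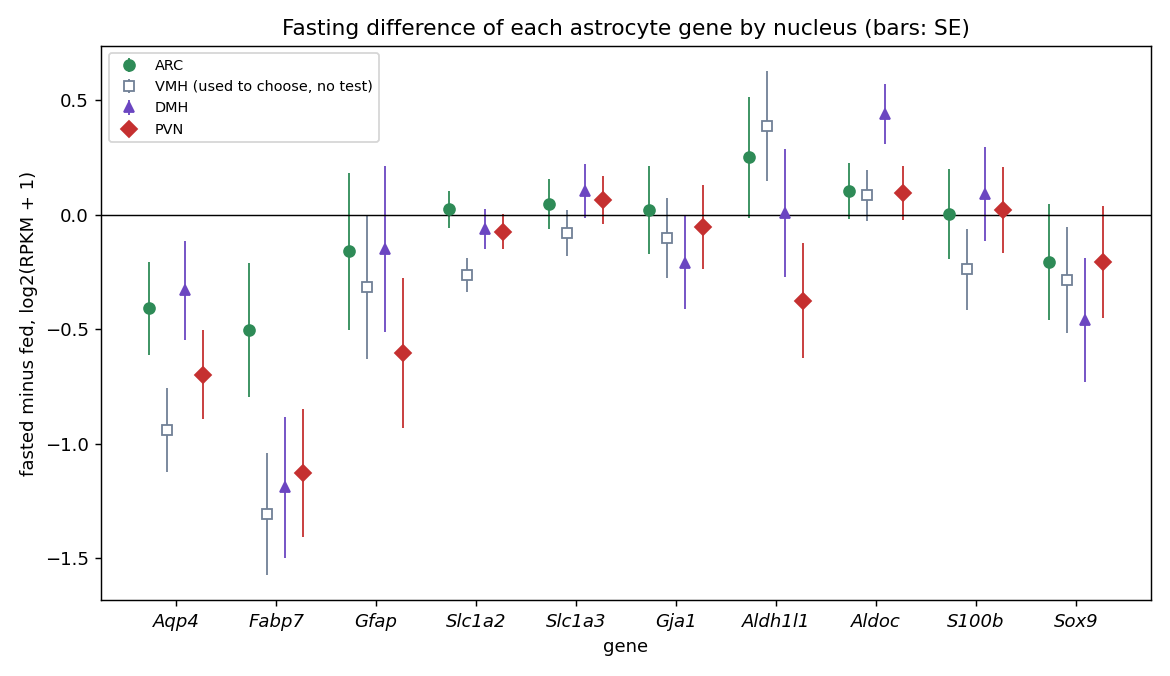
Fitted fasted minus fed difference of log2(RPKM + 1) for each gene in each nucleus; bars are the SE, and open squares are the VMH, whose contrast was used for the choice. *Fabp7* and *Aqp4* lie below 0 in all 4 nuclei, from -0.33 for *Aqp4* in the DMH to -1.31 for *Fabp7* in the VMH, while the glutamate transporter genes lie near 0 outside the VMH.

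A wider set of 63 astrocyte genes, in 5 lists by role and with none of the 10 genes among them, was read from the same fits. All 63 were tested. The lists were drawn up with earlier results of these data known, so counts of called genes in them are a description and no independent check. Averaged over the ARC, DMH and PVN, 3 of the 63 were higher and 2 lower with fasting, against 0.125% and 0.0893% of all genes tested. Their median difference was -0.06, the same as the median of the 10 genes (-0.06), beside -0.01 over genes with reads in all libraries. In the VMH their median was -0.11, beside -0.03.

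*Glul*, glutamine synthetase, which makes glutamine from the glutamate that the transporters take up, rose most clearly of the 11 genes of transmitter handling. It averaged 222 ± 16.9 RPKM in fed and 370 ± 36.2 RPKM in fasted DMH libraries (log2 difference 0.73, SE 0.11, adjusted p = 0.00136). It also rose in the ARC (0.51, SE 0.10, adjusted p = 0.0502) and in the PVN (0.49, SE 0.10, adjusted p = 0.0349), and the mean of these differences was 0.58 (SE 0.06, adjusted p = 2.13e-07). In the VMH its difference was 0.27 (SE 0.09). It was the single gene of the 63 past the threshold within a nucleus. With each nucleus fitted on its own libraries, the calls of *Glul* within the ARC, DMH and PVN were lost (adjusted p = 0.595, 0.207 and 0.697).

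Among 14 genes of metabolism and lipid, *Slc2a1*, the glucose transporter GLUT1 of astrocytes and of brain endothelium, was higher with fasting (mean log2 difference 0.72, SE 0.10, adjusted p = 0.000162). It went from 24.9 ± 5.85 to 44.6 ± 3.27 RPKM in the DMH. Whether astrocytes or endothelium carried the difference was not tested. Among 13 ion and water genes, *Kcnj10*, the inward rectifier potassium channel Kir4.1 that is found with AQP4 in endfeet, was lower (-0.42, SE 0.07, adjusted p = 0.000794). It averaged 71.2 ± 10.1 RPKM in fed and 49.7 ± 7.83 RPKM in fasted ARC libraries. Among 13 secreted and surface genes, the tissue factor gene *F3* was higher (0.76, SE 0.17, adjusted p = 0.0383) and *Ncan*, which encodes the matrix proteoglycan neurocan, was lower (-0.47, SE 0.09, adjusted p = 0.0116). Of 12 transcription factor genes, 0 passed, and the most abundant of them, *Id4* and *Id2*, had mean differences of -0.27 and -0.10.

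Between nuclei, 40 of the 63 genes differed in level (18.7% of all genes tested). Of the 12 genes listed for reactive astrocytes, 8 differed between nuclei and 0 passed in the averaged fasting contrast. The nuclei did not rank alike in these 8: *Serpina3n*, *Stat3*, *Nes*, *Cd44* and *Timp1* averaged highest in the ARC, *Vim* and *Osmr* in the PVN, and *C3* in the VMH. The summed level of the list was 111 to 235 RPKM in the ARC and 27.5 to 80.0 RPKM over the other nuclei, and most of the ARC sum was *Serpina3n*. This serine protease inhibitor gene averaged 118 RPKM in the ARC and between 11.2 and 26.8 RPKM elsewhere. *Vim*, which encodes the filament protein vimentin, averaged 14.5 RPKM in the PVN and 10.3 RPKM in the ARC. *Stat3* averaged 14.8 RPKM in the ARC and between 7.30 and 9.58 RPKM elsewhere, and *Lcn2* had no reads in 29 of the 42 libraries.

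**Figure D4:**
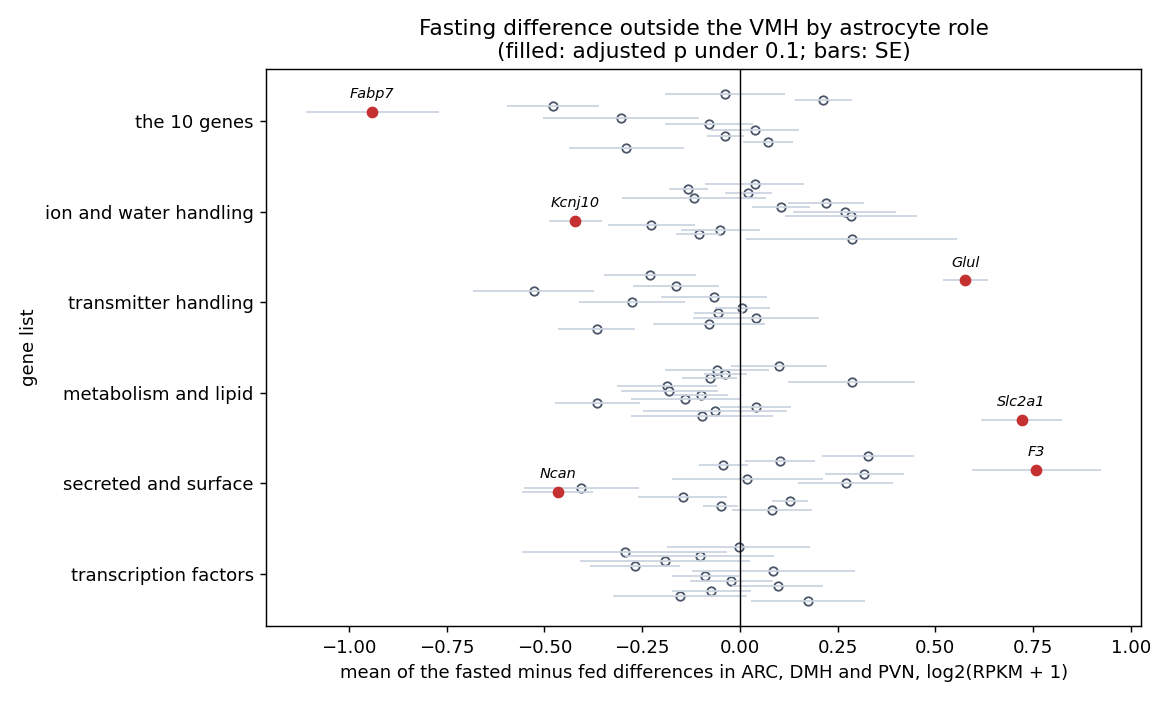
Mean of the fasted minus fed differences in the ARC, DMH and PVN on the log2(RPKM + 1) scale for the 10 genes and for 63 further astrocyte genes in 5 lists by role; bars are the SE and filled red points have an adjusted p under 0.1. *Fabp7*, *Kcnj10* and *Ncan* are the called genes below 0, and *Glul*, *Slc2a1* and *F3* those above 0.

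Genes of other cell types that a dissected nucleus can hold were read beside these results. In the averaged fasting contrast, 0 of 11 neuron, 8 oligodendrocyte, 5 oligodendrocyte precursor, 8 microglia, 8 endothelial, 7 tanycyte, 6 ependymal and 7 pericyte and fibroblast genes passed the threshold. With 0.214% of all genes past it, counts of 0 in lists this short are no result about these cell types. Tanycytes, the glia that line the third ventricle, and oligodendrocyte precursors can also express *Fabp7*. The summed level of the 7 tanycyte genes was 57.7 to 72.7 RPKM in fed and 60.3 to 71.3 RPKM in fasted DMH libraries. In the PVN it was 8.97 to 26.2 RPKM in fed and 13.7 to 20.4 RPKM in fasted libraries, and in the ARC 30.2 to 47.8 RPKM in fed and 27.6 to 53.9 RPKM in fasted libraries. In the VMH it was 12.5 to 19.2 RPKM in fed and 16.1 to 22.8 RPKM in fasted libraries. *Gpr50* made up most of the sum in the DMH, and the tanycyte gene *Rax* had no reads in 29 of the 42 libraries. The sum therefore does not measure the share of tanycytes.

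The 5 oligodendrocyte precursor genes summed to 37.2 to 58.2 RPKM in fed and 35.4 to 48.6 RPKM in fasted DMH libraries, and to 26.6 to 42 RPKM in fed and 22.7 to 40.7 RPKM in fasted PVN libraries. In the ARC their sum was 30.4 to 45.1 RPKM in fed and 34.5 to 42.1 RPKM in fasted libraries. In the VMH their sum was 40.3 to 65.1 RPKM in fed and 25.1 to 47.8 RPKM in fasted libraries. The part of tanycytes and of oligodendrocyte precursors in the difference of *Fabp7* was not tested. The sum of the 10 astrocyte genes was 519 to 650 RPKM in fed and 556 to 650 RPKM in fasted DMH libraries, and 435 to 554 RPKM in fed and 411 to 544 RPKM in fasted PVN libraries. In the ARC it was 452 to 510 RPKM in fed and 419 to 502 RPKM in fasted libraries. In the VMH it was 564 to 833 RPKM in fed and 504 to 605 RPKM in fasted libraries. *Aldoc* and *Slc1a2*, the most abundant members, weigh most in this sum, and it does not measure the share of astrocytes.

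Between libraries of the same group the genes varied together only in part. After the 8 group means were removed, the 45 pairs of genes had a median Pearson r of 0.12 over 42 libraries, from -0.39 (*S100b* and *Sox9*) to 0.59 (*Slc1a2* and *Gja1*), and 38 pairs were above 0. *Aqp4* went most with *Slc1a2* (r = 0.59), and *Fabp7* with *Slc1a3* (r = 0.46). *Aqp4* and *Fabp7*, chosen together, had an r of 0.19 with each other. These values are a description: all points share the preparation, batch adjustment and depth of their library, and with depth removed the pairs of *Slc1a2* with *Gja1*, *Slc1a2* with *Aqp4* and *Fabp7* with *Slc1a3* had 0.59, 0.59 and 0.46.

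Over 13750 genes with a symbol and a mean of at least 5 RPKM, the genes whose deviations were most like those of *Aqp4* were *Rgs17* (r = 0.69), *Zbtb8os* (0.62), *Sh3bgrl* (0.61), *Ica1l* (0.59) and *Slc1a2* (0.59). For *Fabp7* they were *Tmem147* (0.67), *Rpl14* (0.65), *Atp1b3* (0.64), *Ppp3cc* (0.61) and *Ptov1* (0.61). Of these 10 names, 1 is an astrocyte gene of the set.

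**Figure D5:**
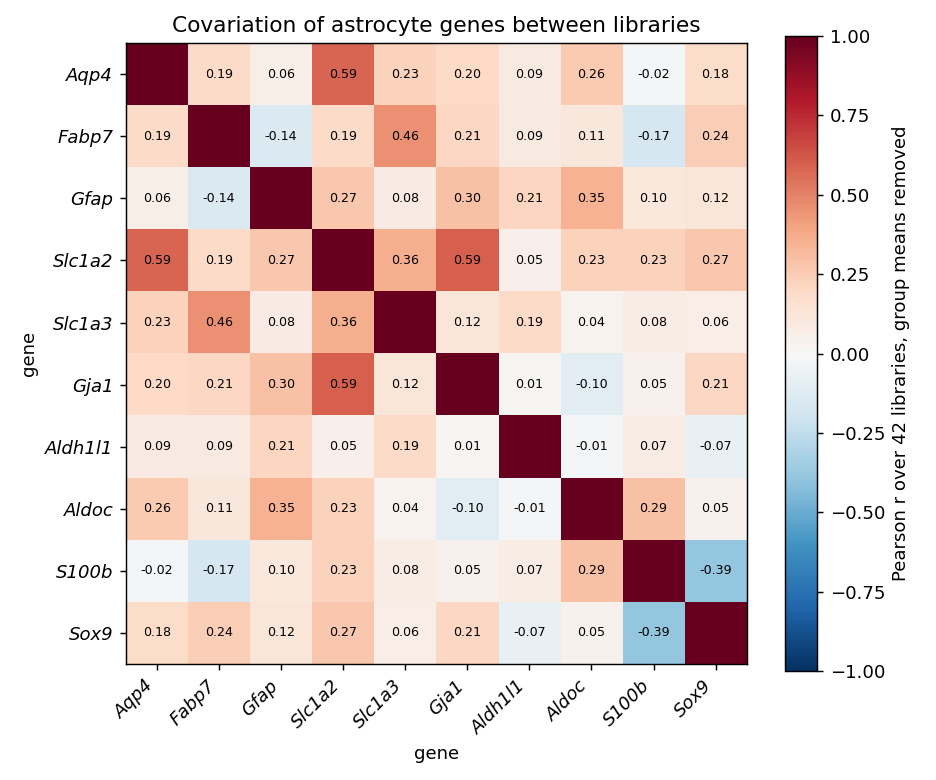
Pearson r of each pair of the 10 genes over 42 libraries on the log2(RPKM + 1) scale after the 8 group means were removed (red above 0, blue below 0). *Slc1a2* has the highest values, 0.59 with *Gja1* and with *Aqp4*, and *S100b* with *Sox9* the lowest, -0.39.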

How the data were processed

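The values the authors deposited are RPKM in a table of 37907 Ensembl IDs and 42 libraries. The authors mapped reads to GRCm38 with TopHat, and the submitters' processing notes name TopHat2 2.0.11, Cufflinks 2.2.1 and CASAVA 1.7. The methods of the study state capture in 3 batches and the removal of outlying samples by multidimensional scaling. The table holds 0 values of 0. Recurring lowest values, shared within 3 sets of 10, 16 and 16 libraries, show a count added to the reads and batch means already removed. The added count was set here to 5 in the mean library to scale the estimates. Between 96.8% and 98.8% of low values lay within 0.02 of a whole number of reads above that level. The level matched the GENCODE M21 exon length within 1% for 75.5% of 20457 genes, which puts depth at a mean of 4.57 M reads (1.33 to 13.2 M). Depths, numbers of reads and batches are therefore estimates, and the depths and numbers of reads rest on the assumed 5.

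The study fitted a model to counts. Because the table holds RPKM, limma 3.58.1 (R 4.3.3) was fitted here to log2(RPKM + 1), with a mean for each of 8 groups, no covariate, an intensity trend in eBayes and two-sided tests. Genes with at least 1 RPKM in at least 4 libraries (33579) were kept. Because the added count alone can put a short gene past this filter, genes without reads can be among those tested. Fold changes on this scale understate the change of low genes. Tested on simulated data (33579 genes, DMH contrast), 70.8% of 96 genes moved by log2 1 were found. Of 104 genes moved by log2 2, 98.1% were found, and there were 13 false calls. Only genes above a set mean level were moved, with independent normal noise in each library. The real DMH contrast called 8 genes, so these shares may overstate recovery in the real data. Tables were summarised with pandas 2.3.3 and numpy 2.4.6. Genes named were all 10 members, those past the threshold in each wider list (otherwise its 2 most abundant, given where a result turned on them), and the 5 most like *Aqp4* and *Fabp7*. The members, lists, motifs and tests were chosen with earlier results of these data known. Promoter sequences are from RefSeq.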

Additional observations from a re-analysis of the deposited data

Results flagged for a closer look

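In 80 groups of libraries (10 genes in 8 groups), a single library lay far from the others of its group in 9, by a gap test on which chance alone picks out about 1 in 20 groups, or 4 here. The 9 values came from 9 different libraries. For *Fabp7*, a fed ARC library had 20.3 RPKM and the other 4 had 49.6 to 60.5 RPKM, and a fed DMH library had 88.4 RPKM beside 48.7 to 59.9 RPKM. Without the latter, the DMH fasting difference was -1.06 (limma, adjusted p = 0.440). For *Aqp4*, a fed ARC library had 20.8 RPKM beside 26.2 to 27.6 RPKM, and without it the ARC difference was -0.48 (limma, adjusted p = 0.694).

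A fed PVN library had 19.7 RPKM of *Gfap* beside 5.16 to 8.49 RPKM. *Slc1a2* was 124 RPKM in a fed DMH library beside 156 to 164 RPKM. *Gja1* was 32.1 RPKM in a fasted DMH library beside 28.6 to 29.1 RPKM, a narrow group. The highest fasted ARC library of *Aldh1l1* had 7.76 RPKM beside 2.49 to 3.96 RPKM. *Aldoc* was 241 RPKM in a fed DMH library beside 184 to 197 RPKM, and without that library its DMH difference was 0.51 (limma, adjusted p = 0.208). *Aldoc* was also high in a fed VMH library, at 374 RPKM beside 204 to 260 RPKM. The causes were not tested.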

How the results depend on the processing

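The averaged fall of *Fabp7* over the ARC, DMH and PVN passed the threshold under all 12 alternatives run for it (log2 difference -0.98 to -0.85, limma adjusted p 0.000665 to 0.0125) and in all 42 fits without a library (adjusted p 0.000386 to 0.0135). The averaged difference of *Aqp4* passed under 3 of 12: a filter of at least 5 RPKM, quantile normalization and array weights. The number of members past the threshold in the averaged contrast was 2 under each of these, and 1 to 2 without a library. In the PVN it was 2 with array weights (*Fabp7*, adjusted p = 0.00864; *Aqp4*, adjusted p = 0.0619), and 0 to 1 without a library: without the fifth fasted PVN library *Fabp7* passed (adjusted p = 0.0990). Between 5 and 7 members differed between nuclei. On fed libraries alone the calls of *Aqp4* (ARC minus PVN 0.59, adjusted p = 0.172) and *Gja1* (DMH minus ARC 0.75, adjusted p = 0.101) were lost, and on fasted libraries alone those of *Gja1* (0.52, adjusted p = 0.144) and *S100b* (DMH minus ARC 0.62, adjusted p = 0.431), with fewer samples in each.

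Of the 63 wider astrocyte genes, in the ARC 2 passed with the filter of 5 RPKM, 0 with each nucleus fitted on its own libraries, and 0 to 2 without a library. In the DMH 2 passed with array weights, 0 on its own libraries and 1 to 2 without a library. In the PVN 4 passed with array weights, 0 on its own libraries and 0 to 1 without a library. Over all genes, calls under the alternatives numbered 0 to 40 in the ARC, 0 to 56 in the DMH, 3 to 141 in the PVN, 1 to 57 in the VMH, 50 to 150 in the averaged contrast and 1 to 9 in the interaction. Between nuclei they numbered 3283 to 7142.

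Differences near 0 that did not pass in any of these fits changed sign. Under array weights *Gja1* in the ARC was -0.0104 and *S100b* in the PVN -0.0356. With depth as a covariate *S100b* was -0.0405 in the ARC, -0.101 in the DMH, -0.00223 in the PVN and -0.0480 averaged. Using only libraries of at least 2 M reads (leaving out 3), *Slc1a3* was -0.00454 and *S100b* -0.0125 in the PVN. Centring on genes with reads in all libraries put *Aldh1l1* in the DMH at -3.59e-05. The last 2 settings were added after seeing the data. Without a library the ranges crossed 0 in the ARC for *Gfap* (-0.319 to 0.0671), *Slc1a2* (-0.0187 to 0.0709), *Gja1* (-0.0658 to 0.137) and *S100b* (-0.0624 to 0.147). They did so in the DMH for *Gfap* (-0.318 to 0.0236) and *Aldh1l1* (-0.0686 to 0.148). In the PVN this held for *Slc1a3* (-0.0140 to 0.131), *Gja1* (-0.121 to 0.0228), *Aldoc* (-0.00727 to 0.168) and *S100b* (-0.0861 to 0.119), and for the average of *Aldh1l1* (-0.118 to 0.0195). The causes were not tested.

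Groups share replicate numbers in the labels. A number can fall in different batches: replicate 2 was in batch 2 in the fed ARC and in batch 1 in the fed VMH. The numbers were not taken as pairs. Libraries of the same number in different groups had a median r of -0.05 over 136 pairs (0 above 0.1). This r cannot decide the pairing, because group and batch means had been removed. A block by replicate number is likewise no check of pairing by mouse. With the replicate number as a block, *Glul* in the ARC was lost (adjusted p = 0.106), so that 0 of the 63 wider genes passed there, and *Aldh1l1* in the DMH was -0.0746. The block gave 7 members between nuclei, 1 averaged and 0 in the ARC, DMH and PVN. Planned median centring moved no value by more than rounding, because many genes sat at their no-read level. At 7.87 reads, the lowest *Gfap* value is the least precise.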
